A study of Mus musculus with 9 samples.

Results

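The comparison described here set the TSPAN8-low fraction of ID4-EGFP+ mouse spermatogonia against all ID4-EGFP+ spermatogonia, and asked what the weakly stained cells gained or lost relative to the population they were sorted from. It used 6 of the 9 libraries of the study, 3 for each of these groups, and paired the libraries by the sample number in their titles. Expression was given in FPKM (fragments scaled by transcript length and by the mapped fragments of the library). A gene was tested if 3 or more of the 6 libraries reached 1 FPKM, and symbols on more than 1 table entry were left out. This left 10843 of 23045 symbols. At the edge of this filter, Mon1b stood just inside with a third-highest value of 1.00004 FPKM and Fads3 just outside with 0.999745.

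All cells came from testes of male pups at postnatal day 6 that carried the Id4-eGfp transgene of the LT-11B6 line on a C57BL/6 background. The cells of every library were therefore selected for EGFP expressed from an Id4 transgene. The TSPAN8-low cells were the most weakly stained 1/3 of the antibody-positive cells, and the most strongly stained 1/3 formed the TSPAN8-high group, whose 3 libraries are given here only for comparison. The unfractionated population contains cells of both kinds, so it is not a separate cell type. Per the labels the 3 libraries of a group are replicate preparations. The labels do not say whether libraries of equal number in different groups share a preparation, or whether pups were pooled or litters kept apart, so the p-values reflect only how these libraries vary.

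Undifferentiated spermatogonia are the germ cells that include the stem cells of the testis and their progenitors. The inhibitor of DNA binding ID4 is highest at the stem cell end of the population, which is maintained by GDNF from Sertoli cells, acting through the receptor pair GFRA1 and RET, and by FGF. Progenitors lose this state and, under retinoic acid, become differentiating spermatogonia that express the receptor KIT. TSPAN8 is a tetraspanin, a surface protein that spans the membrane several times and organises other membrane proteins.

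The absolute depth is unknown; the relative depth was 0.855 to 0.945 of that of all ID4-EGFP+ replicate 1 in the TSPAN8-low libraries and 0.914 to 1.03 in the all ID4-EGFP+ libraries. Between 10734 and 11053 table entries reached 1 FPKM. Across genes, libraries of 1 group correlated with Pearson's r of 0.981 to 0.990, and libraries of different groups with r of 0.973 to 0.991. The median log2 fold change of all tested genes, on the scale log2(FPKM + 1), was -0.06 (TSPAN8-low minus all ID4-EGFP+).

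Tspan8 mRNA was lower in the weakly stained cells in each of the 3 pairs, but the difference did not pass the test. It stood at 14.5, 14.2 and 16.8 FPKM in all ID4-EGFP+ replicates 1, 2 and 3, and at 6.65, 10.8 and 11.8 FPKM in the TSPAN8-low libraries. The groups did not overlap, with means of 15.2 ± 1.39 and 9.73 ± 2.71 FPKM (SD, n = 3). The log2 fold change was -0.62 (SE 0.16, limma adjusted p = 0.106), with p = 0.1 by the exact permutation test (two-sided), the lowest value that 3 libraries against 3 can reach. Without replicate 2 of both groups Tspan8 did pass, at -0.75 (SE 0.19, limma adjusted p = 0.0106). Its SE was larger there than in the main fit, so the pass does not mark a more precise estimate. In TSPAN8-high the gene stood at 43.7, 29.6 and 28.8 FPKM, above every library of the other groups. The RefSeq table places the start of Tspan8 on the plus strand, and the window from 250 bases before to 50 after it (chr10:115817034-115817333, GRCm38.p6) is shown for the gene on which the sort rests. Its capitals mark an octamer, the letters ATTTGCAT on either strand, which is found in 1.74% of the 32851 promoter windows of the same length.
Tspan8: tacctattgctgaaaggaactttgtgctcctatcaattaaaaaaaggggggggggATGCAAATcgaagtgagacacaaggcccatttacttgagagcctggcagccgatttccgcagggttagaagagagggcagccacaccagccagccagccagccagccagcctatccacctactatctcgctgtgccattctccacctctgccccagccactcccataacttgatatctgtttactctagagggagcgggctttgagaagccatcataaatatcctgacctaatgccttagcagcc

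Id4, the gene whose reporter all cells were sorted on, was also lower in each pair. Its values were 30.6, 38.04 and 38.2 FPKM in all ID4-EGFP+ and 17.7, 27.0 and 33.9 FPKM in TSPAN8-low. The groups overlapped, since TSPAN8-low replicate 3 lay above all ID4-EGFP+ replicate 1. The log2 fold change was -0.47 (SE 0.15, limma adjusted p = 0.175; exact two-sided permutation p = 0.2). In TSPAN8-high, Id4 stood at 71.1, 71.6 and 58.9 FPKM. There the log2 fold changes over the unfractionated cells were 1.09 for Tspan8 and 0.90 for Id4. Epha2, for a receptor that served for other sorts in the study and named here after its values were seen, was under the filter at 0.868 ± 0.0101 FPKM against 0.548 ± 0.142 FPKM in TSPAN8-low (SD, n = 3). Pvr, looked at with it and also under the filter, did not fall: it had 0.372 ± 0.119 FPKM against 0.420 ± 0.00751 FPKM, with overlap.

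Across all genes, 9 of 10843 passed at an adjusted p under 0.05 (0.083%). Of these, 3 were higher in TSPAN8-low (0.0277%) and 6 were lower (0.0553%). More genes leaned toward lower values: 1174 had an unadjusted p under 0.05 with a lower value in TSPAN8-low (10.8%) and 487 with a higher value (4.49%). The 3 libraries of each group did not overlap for 1148 genes that were lower (10.6%) and 382 that were higher (3.52%). The median absolute log2 fold change was 0.15, and the median SE was also 0.15. Over the same genes and with the same test, TSPAN8-high against all ID4-EGFP+, which shares its control libraries, gave 437 higher (4.03%) and 486 lower (4.48%).

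The calls rest on the pairing of the libraries. Without the replicate number as a block 0 genes passed by limma, and 804 had an unadjusted p under 0.05 (7.41%). When low values were not filtered, 0 of 18770 genes passed by limma with the block, against 1912 at an unadjusted p under 0.05. Leaving out replicate 1, 2 or 3 of both groups gave 7, 196 and 102 genes. Fewer genes than in the main fit had an unadjusted p under 0.05 there (1518, 1558 and 1037, against 1661). The cause of the larger counts was not tested, so they are not read as clearer differences. The direction of the calls moved with the scaling: 3 higher and 6 lower became 16 and 4 with the authors' normalized values, 20 and 6 with a common median, and 21 and 6 after quantile normalization.

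**Figure D1:**
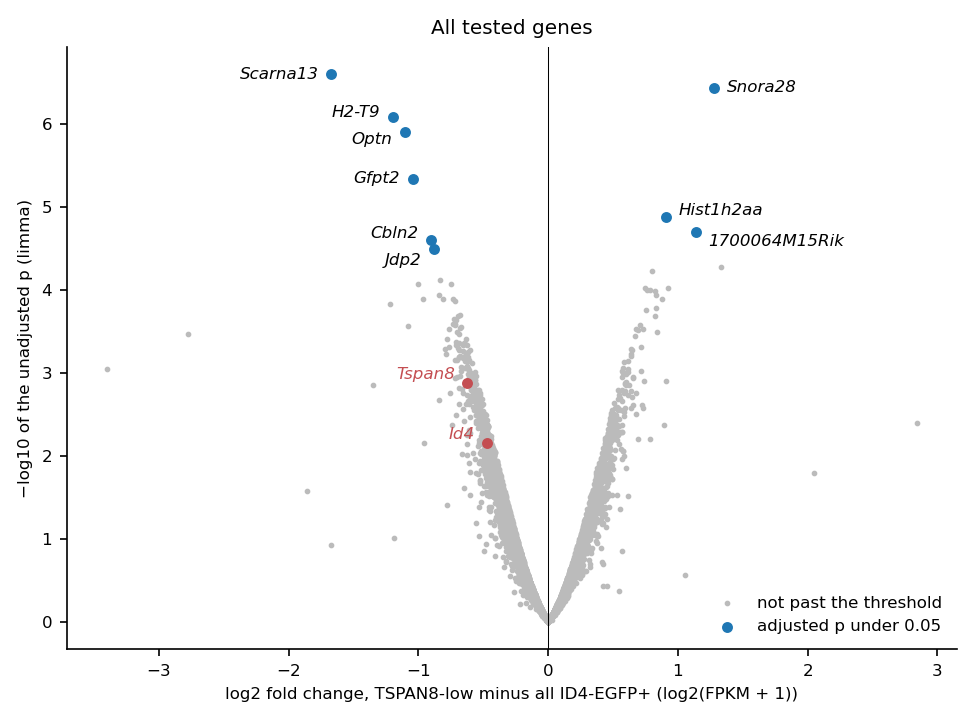
All 10843 tested genes, with the log2 fold change of TSPAN8-low minus all ID4-EGFP+ on the x axis (log2(FPKM + 1) scale) and the negative log10 of the unadjusted limma p on the y axis. The 9 genes past the threshold are named and blue, 3 to the right of 0 and 6 to the left; Tspan8 and Id4, in red, lie to the left among the genes that did not pass.

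Of the 6 genes that fell, 4 code for proteins with well-known roles, and each of the 4 also passed between the fractions, with the higher level in the strongly stained cells (limma adjusted p from 2.23e-05 to 0.000399). Optn, for the autophagy receptor optineurin, stood at 11.6, 16.6 and 15.96 FPKM in all ID4-EGFP+ and at 4.58, 7.59 and 6.90 FPKM in TSPAN8-low. The groups were well apart, the highest TSPAN8-low value lying below the lowest of the others. Its mean was 2.32-fold lower in TSPAN8-low, with a log2 fold change of -1.10 (SE 0.14, limma adjusted p = 0.00339). In TSPAN8-high it stood at 17.9, 25.8 and 27.6 FPKM, a log2 fold change of 0.65 over the unfractionated cells (limma adjusted p = 0.00196). Optn was thus lowest in the weakly stained cells and highest in the strongly stained ones. The library kit does not mark strand, so the values do not separate Optn from the antisense gene 4930551O13Rik. The same limit holds for Hist1h2aa (Gm44344), Jdp2 (Gm47863), Tspan8 (4930422I22Rik) and Id4 (A330033J07Rik and Gm49291), which also overlap genes on the other strand in GENCODE M21. The promoter window of Optn (chr2:5064068-5064367, minus strand, GRCm38.p6, RefSeq) is shown because Optn is the only list member that passed. Capitals mark 2 GC boxes, the letters GGGCGG on either strand, which are found in 35.7% of all such windows.
Optn: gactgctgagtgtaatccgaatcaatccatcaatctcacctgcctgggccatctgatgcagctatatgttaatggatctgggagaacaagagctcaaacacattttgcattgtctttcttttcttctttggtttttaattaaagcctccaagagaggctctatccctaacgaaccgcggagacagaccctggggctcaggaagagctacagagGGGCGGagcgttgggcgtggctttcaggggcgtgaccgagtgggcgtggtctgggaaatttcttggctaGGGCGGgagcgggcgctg

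Gfpt2, for the enzyme that commits fructose-6-phosphate to hexosamine synthesis, fell from 24.9, 34.2 and 36.5 FPKM to 8.91, 17.6 and 20.1 FPKM in replicates 1, 2 and 3. All 3 TSPAN8-low values lay below the lowest control. The log2 fold change was -1.04 (SE 0.15, limma adjusted p = 0.0102). TSPAN8-high had 36.2, 50.6 and 66.5 FPKM, and the fractions differed by 1.69 (limma adjusted p = 3.23e-05). Without replicate 1 of both groups the Gfpt2 call was lost (limma adjusted p = 0.0760).

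Cbln2, for a secreted organiser of synapses, and Jdp2, for a leucine zipper repressor that pairs with Jun proteins, were low in every library and fell further in TSPAN8-low. Cbln2 stood at 3.49, 2.85 and 3.95 FPKM in all ID4-EGFP+ and at 1.22, 0.985 and 1.97 FPKM in TSPAN8-low (log2 fold change -0.90, SE 0.15, limma adjusted p = 0.0340). Jdp2 stood at 2.84, 3.29 and 3.75 FPKM against 0.897, 1.46 and 1.7 FPKM (log2 fold change -0.88, SE 0.15, limma adjusted p = 0.0386). Neither gene's groups overlapped. Each had a TSPAN8-low value under 1 FPKM, so its entry to the test rested on its all ID4-EGFP+ values. In TSPAN8-high, Cbln2 had 6.72, 6.07 and 5.71 FPKM and Jdp2 4.0, 4.71 and 4.95 FPKM, above all control libraries. Both calls were lost without replicate 1 (limma adjusted p = 0.158 for each) and with the authors' normalized values (0.0571 for Cbln2 and 0.0694 for Jdp2), and that of Jdp2 also with a pseudocount of 0.1 (0.0531).

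The other genes that fell were a small RNA and a histocompatibility gene, both with very low estimates. Both met the filter only through their all ID4-EGFP+ values, so a fall in TSPAN8-low was tied to how they entered the test. Scarna13, a Cajal body RNA that guides modification of spliceosomal RNA, stood at 2.15, 3.78 and 2.53 FPKM in all ID4-EGFP+. It was listed at 0 in TSPAN8-low replicates 1 and 2 and at 0.645 FPKM in replicate 3. A 0 in these files can be a failed estimate. The log2 fold change was -1.67 (SE 0.19, limma adjusted p = 0.00204), while TSPAN8-high had 2.52, 1.17 and 2.71 FPKM. Scarna13 lies within Snhg10, which was named after its values were seen and did not pass (0.10, limma adjusted p = 0.799). H2-T9, of the T region of the major histocompatibility complex, stood at 2.84, 1.39 and 1.24 FPKM in all ID4-EGFP+. In TSPAN8-low it stood at 0.714, 5.28e-06 and 0.000228 FPKM (log2 fold change -1.20, SE 0.15, limma adjusted p = 0.00302). The estimate is uncertain, because the T region holds near-identical genes among which reads can be split. With all 9 libraries in the fit the H2-T9 call was lost (limma adjusted p = 0.0601).

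Among the genes that passed, the largest fitted rise on the log2(FPKM + 1) scale was in Snora28, an H/ACA small nucleolar RNA, a class that guides pseudouridylation of ribosomal RNA. It stood at 108, 140 and 52.3 FPKM in all ID4-EGFP+ and at 211, 383 and 143 FPKM in TSPAN8-low. The groups did not overlap, and within each pair the TSPAN8-low library was the higher. The log2 fold change was 1.28 (SE 0.15, limma adjusted p = 0.00204). Snora28 was higher still in TSPAN8-high, at 381, 600 and 405 FPKM, so it was above the unfractionated cells in both stained fractions. The gene lies within Eif5, on the same strand. Eif5, named after its values were seen, did not pass (log2 fold change 0.15, limma adjusted p = 0.714). FPKM estimates of RNAs this short are uncertain.

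Hist1h2aa, which encodes a testis-specific variant of histone H2A, rose in every pair. It stood at 11.9, 12.8 and 13.98 FPKM in all ID4-EGFP+ and at 19.97, 26.1 and 30.1 FPKM in TSPAN8-low. Its mean was 1.97-fold higher, with a log2 fold change of 0.91 (SE 0.15, limma adjusted p = 0.0241). In TSPAN8-high it stood at 20.1, 16.2 and 13.9 FPKM, lower than in TSPAN8-low (difference 0.57 on the log2 scale, limma adjusted p = 0.0413). The TSPAN8-high estimate also lay above the unfractionated cells, and did not pass (0.34, limma adjusted p = 0.141). With all 9 libraries in the fit the Hist1h2aa call was lost (limma adjusted p = 0.0601). Its divergent neighbour Hist1h2ba encodes the testis-specific H2B variant. That gene had 6.14, 5.35 and 7.85 FPKM against 10.1, 14.6 and 11.9 FPKM in TSPAN8-low, also without overlap, and did not pass (log2 fold change 0.83, SE 0.17, limma adjusted p = 0.0640). Both promoters are shown because both genes lay higher in TSPAN8-low. Their RefSeq windows (chr13:23934187-23934486, plus strand, and chr13:23934107-23934406, minus strand, GRCm38.p6) share 220 bases, and their start sites lie 281 bases apart. Capitals mark the octamer, here a single match that both windows share. The later RefSeq symbols are H2ac1 and H2bc1.
Hist1h2aa: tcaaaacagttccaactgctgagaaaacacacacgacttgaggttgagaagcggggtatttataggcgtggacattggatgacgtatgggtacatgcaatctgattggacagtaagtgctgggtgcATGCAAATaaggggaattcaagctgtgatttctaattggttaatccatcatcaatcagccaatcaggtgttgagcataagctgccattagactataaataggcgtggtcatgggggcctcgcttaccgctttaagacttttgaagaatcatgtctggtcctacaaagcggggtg
Hist1h2ba: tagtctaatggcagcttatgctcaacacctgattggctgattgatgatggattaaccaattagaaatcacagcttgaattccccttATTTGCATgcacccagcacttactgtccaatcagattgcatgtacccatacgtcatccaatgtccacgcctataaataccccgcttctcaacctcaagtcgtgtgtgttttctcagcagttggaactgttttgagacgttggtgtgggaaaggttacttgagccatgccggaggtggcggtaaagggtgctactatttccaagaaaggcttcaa

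The remaining gene that rose, 1700064M15Rik, is an intergenic noncoding RNA in the GENCODE annotation. It stood at 4.17, 3.97 and 1.51 FPKM in all ID4-EGFP+ and at 11.96, 6.03 and 6.54 FPKM in TSPAN8-low (log2 fold change 1.14, SE 0.19, limma adjusted p = 0.0312). TSPAN8-high had 1.82, 1.34 and 1.82 FPKM, below TSPAN8-low by 1.74 on the log2 scale (limma adjusted p = 0.000173). Every TSPAN8-low value lay above every value of the other groups. The call was lost without replicate 1 (limma adjusted p = 0.167) and with all 9 libraries in the fit (0.0637).

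**Figure D2:**
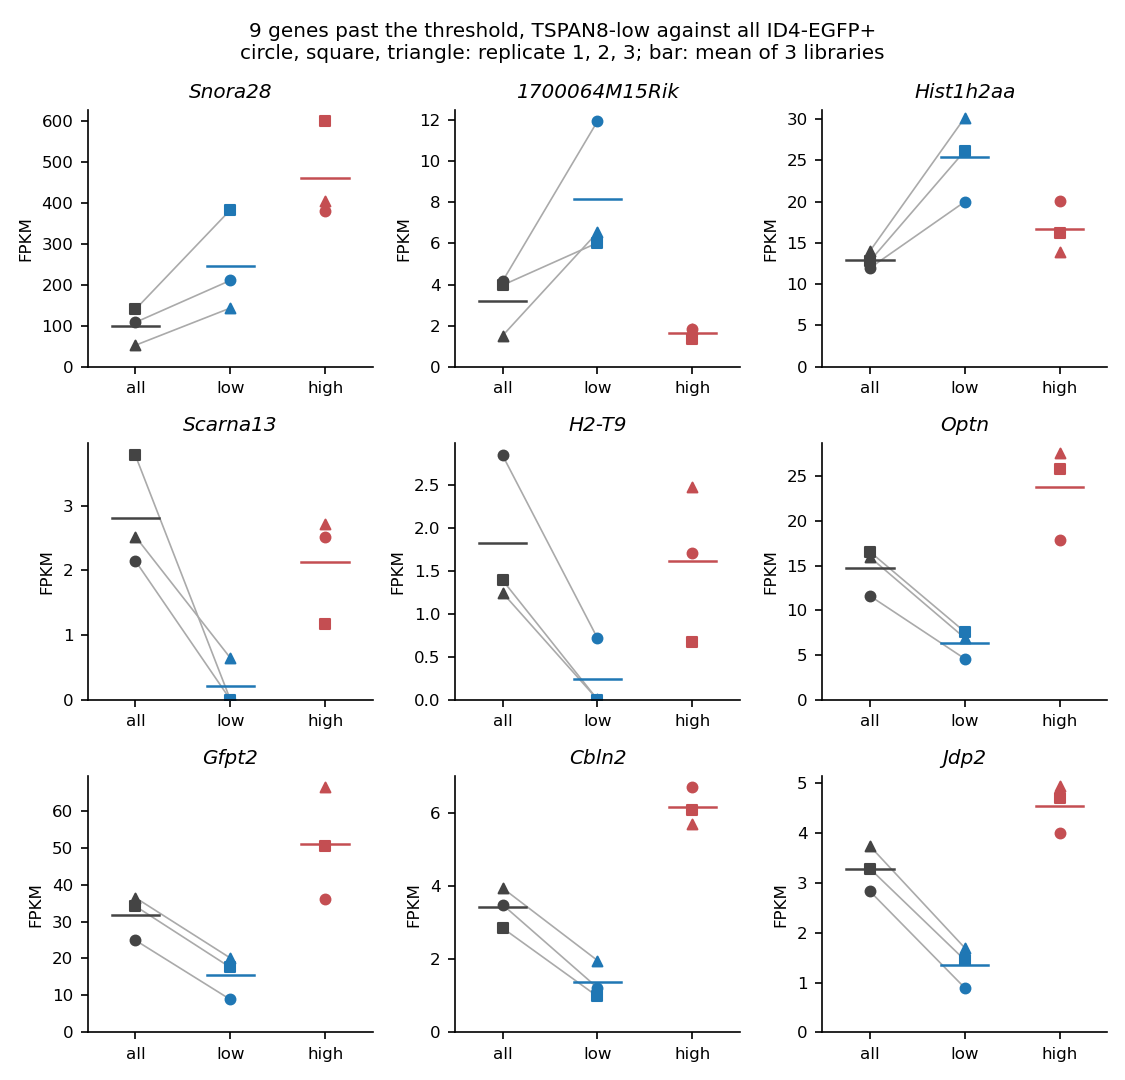
FPKM of the 9 genes that passed, by library, in all ID4-EGFP+ (all), TSPAN8-low (low) and TSPAN8-high (high); circles, squares and triangles are replicates 1, 2 and 3, grey lines join the paired libraries and bars are means of 3. In each panel the low and all points do not overlap; Optn, for example, lies between 4.58 and 7.59 FPKM in low and between 11.6 and 16.6 FPKM in all.

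Just short of the threshold, 12 genes with higher and 9 with lower values in TSPAN8-low had limma adjusted p from 0.0568 to 0.0743. They were picked by smallest p among genes whose groups did not overlap, so their lack of overlap is not a result. Genes of like p whose groups overlapped, such as Trf (limma adjusted p = 0.0568), are not counted among them. Ccne2, for cyclin E2, which drives entry into S phase, had 21.0, 19.3 and 15.8 FPKM in all ID4-EGFP+ and 34.6, 30.6 and 34.3 FPKM in TSPAN8-low (log2 fold change 0.80). Cited1, for a transcriptional coregulator of progenitors, had 67.6, 43.0 and 72.6 FPKM against 111, 94.2 and 94.5 FPKM (0.73). Gchfr, for a feedback regulator of tetrahydrobiopterin synthesis, had 12.8, 8.98 and 13.6 FPKM against 23.3, 16.8 and 21.0 FPKM (0.75). For Cited1 and Gchfr the strongly stained cells lay on the other side of the unfractionated ones, at 9.77 to 19.9 FPKM and at 1.92 to 4.61 FPKM.

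The same held for Ly6k, for a surface protein anchored by a lipid tail, with 7.96, 4.08 and 5.09 FPKM in all ID4-EGFP+, 11.2, 12.1 and 9.79 FPKM in TSPAN8-low, and 2.13, 1.10 and 1.47 FPKM in TSPAN8-high. The log2 fold changes of TSPAN8-low over all ID4-EGFP+ were 0.83 for Acbd7, for an acyl-CoA binding protein, 0.82 for Nat1, for an arylamine N-acetyltransferase, and 0.71 for Eda2r, for a receptor of the TNF family. The transcripts 4930429F24Rik (0.93), 1700013H16Rik (0.76), Gm11837 (0.79) and 4930599N23Rik (0.75), for which no role is given here, make up the rest with Hist1h2ba. Nat1, 4930429F24Rik and 4930599N23Rik met the filter only through their TSPAN8-low values, so their rise was tied to their entry. In all ID4-EGFP+ they had 1.27, 0.463 and 0.612 FPKM, 1.76, 0.903 and 0.265 FPKM, and 0.878, 0.854 and 1.12 FPKM. In TSPAN8-high, 4930599N23Rik also lay above the unfractionated cells and passed (0.54, limma adjusted p = 0.0317). Gm11837 had 0.38 there and did not pass (limma adjusted p = 0.104).

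Among the 9 so named with lower values, Foxc2, for a forkhead factor, had 4.54, 3.81 and 5.16 FPKM in all ID4-EGFP+ and 1.87, 2.22 and 2.16 FPKM in TSPAN8-low (log2 fold change -0.83). S100a6, for a calcium-binding protein, had 12.6, 10.8 and 15.7 FPKM against 3.47, 7.81 and 7.5 FPKM (-1.0). Sphk1, for sphingosine kinase, had 14.1, 21.3 and 22.7 FPKM against 7.55, 13.4 and 13.5 FPKM (-0.72). In TSPAN8-low replicate 1 S100a6 and Sphk1 were lowest.

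The other log2 fold changes on this side were -0.70 for Etv5, for an ETS factor induced by GDNF, -0.84 for Plxdc2, for a plexin domain membrane protein, and -0.73 for Prmt2, for an arginine methyltransferase. Those of Plaur, for the urokinase receptor, Capn10, for a calpain protease, and Oit1 were -0.81, -0.71 and -0.96. Oit1, at 0.153, 0.877 and 1.72 FPKM in TSPAN8-low, met the filter only with its all ID4-EGFP+ values. Sphk1, Etv5, Foxc2, Plxdc2 and Oit1 also lay above the unfractionated cells in TSPAN8-high, where each passed (limma adjusted p from 0.00141 to 0.0464). With each library corrected for GC content, added after the data were seen, 10 of these 21 genes passed in TSPAN8-low against all ID4-EGFP+, among them Gchfr, Ly6k, Cited1 and Hist1h2ba (limma adjusted p from 0.00443 to 0.00444).

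Genes of the stem cell state had lower estimates in TSPAN8-low, while none passed singly. Of the 20 genes on this list, 15 were tested, 0 passed, and 13 had an unadjusted p under 0.05, all with lower values. Of all tested genes, 10.8% were lower and 4.49% higher at that level, the shares to set beside the counts of each list. All 15 estimates were below 0, 13 of them in each of the 3 pairs. The groups did not overlap for 6 (10.6% of all tested genes were lower without overlap). Their median log2 fold change was -0.52 (range -0.83 to -0.19), against -0.06 for all tested genes. By pair the list's medians were -0.86, -0.39 and -0.46 for replicates 1, 2 and 3, so the gap was widest in the first pair. Over the alternative settings the median stayed between -0.73 and -0.35. The number of members past the threshold did not stay at 0: it reached 7, all lower, without replicate 2 of both groups, and 2 without replicate 3. In those fits fewer of all tested genes than in the main fit had an unadjusted p under 0.05 (1558 and 1037, against 1661). Foxc2 passed with the GC correction (limma adjusted p = 0.0400), with all 9 libraries and the block (0.0464) and with FPKM of at least 1 in all 6 libraries (0.0240). Since bulk RNA was measured, fewer cells of a type and less RNA per cell cannot be told apart. The list was chosen with earlier results of these libraries known, and its direction is not independent evidence.

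The receptor for GDNF lay at the low end of this list. Gfra1, for its ligand-binding part, had 9.87, 11.5 and 11.96 FPKM in all ID4-EGFP+ and 4.30, 7.08 and 8.93 FPKM in TSPAN8-low (log2 fold change -0.68, SE 0.16, limma adjusted p = 0.0878). Ret, for its kinase part, had 5.09, 6.05 and 5.94 FPKM against 2.03, 4.01 and 3.97 FPKM (-0.66, SE 0.16, limma adjusted p = 0.0973). For both genes every TSPAN8-low value lay below every control. Etv5 had 17.1, 16.8 and 22.5 FPKM against 9.00, 10.7 and 14.3 FPKM (limma adjusted p = 0.0712). TSPAN8-low replicate 1 was the lowest library for all 3 genes.

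Other members, named after their values were seen, were Nanos2, for an RNA-binding protein that keeps germ cells undifferentiated, with 8.27, 5.85 and 8.24 FPKM against 3.15, 4.45 and 5.56 FPKM (log2 fold change -0.66). The repressor gene Bcl6b had -0.48 and the homeobox gene Lhx1 -0.52. Tcl1, for a coactivator of the kinase Akt, had 160, 123 and 180 FPKM against 62.1, 93.8 and 165 FPKM (-0.62), and here the third TSPAN8-low library overlapped the controls. Mycn, for a transcription factor of the Myc family, had the smallest difference (-0.19). T, Eomes, Pax7, Pdx1 and Shisa6 were under the filter. In TSPAN8-high the tested members had a median of 0.49 above the unfractionated cells. There the tested Sertoli markers had a median of 1.09, and their part in that value was not tested.

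Sertoli cell RNA varied among the same libraries. The summed FPKM of 16 Sertoli markers was 38.2, 79.1 and 141 in all ID4-EGFP+ replicates 1, 2 and 3 and 22.1, 43.3 and 162 in TSPAN8-low, lower in the first and the second pair and higher in the third (exact two-sided permutation p = 0.9). Of the 9 tested markers 0 passed, and the median log2 fold change was -0.37. A lower value with an unadjusted p under 0.05 was seen for 4 (10.8% of all tested genes). None of the 16 was listed at 0 in all 6 libraries. Trf, for transferrin, had 15.3, 27.0 and 25.8 FPKM against 8.33, 17.3 and 13.97 FPKM (-0.75, SE 0.14, limma adjusted p = 0.0568), and Krt18, Rhox8 and Vim had -0.49, -0.48 and -0.37. In TSPAN8-high the summed level of the markers was 127, 159 and 298 FPKM, above the unfractionated cells in each pair. The part of this RNA in the stem cell, feedback and other list values was not tested.

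Sums for markers of the other testis cells overlapped between the groups. Those for peritubular and interstitial markers (15 genes) were 5.05, 11.8 and 13.3 FPKM against 3.69, 5.36 and 18.6 FPKM in TSPAN8-low, and 3 tested members, Sparc, Pdgfra and Tagln, had -0.40, -0.16 and -0.12. The 8 Leydig markers summed to 0.268, 0.342 and 0.640 FPKM against 0.364, 0.608 and 6.81 FPKM, higher in each pair, none reached the filter, and Hsd3b6 was listed at 0 in all 6 libraries. The endothelial sum (9 genes) was 31.1 to 34.7 FPKM against 28.4 to 33.3 FPKM, most of it from Egfl7 (-0.09). The leukocyte and red cell sum (11 genes) was 8.14 to 12.3 FPKM against 5.41 to 13.2 FPKM, most of it from Cd68 (-0.13), with Csf1r, Emr1, Aif1, Hbb-b1 and Hbb-b2 listed at 0 in all 6. TSPAN8-low replicate 3 held the highest sum of its group in each of these lists. Exact two-sided permutation p for these 4 lists were 0.9, 0.4, 0.4 and 1.

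**Figure D3:**
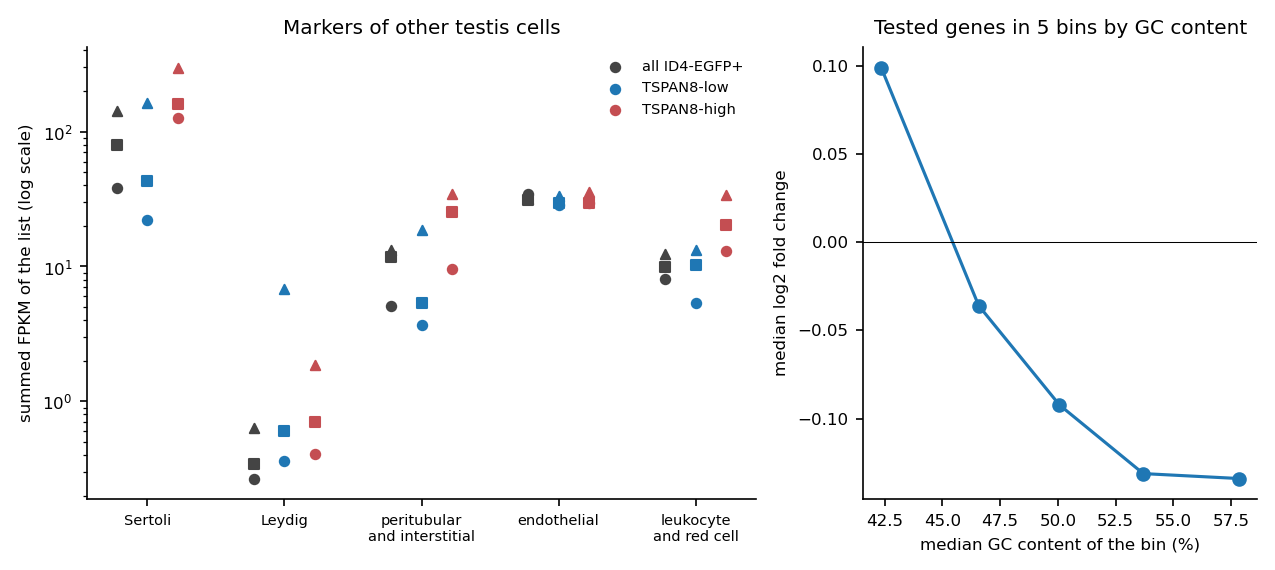
Left, summed FPKM of the marker lists of other testis cells in each library on a log scale, with circles, squares and triangles for replicates 1, 2 and 3; Sertoli sums run from 22.1 to 162 FPKM in TSPAN8-low and from 38.2 to 141 FPKM in all ID4-EGFP+. Right, the median log2 fold change (TSPAN8-low minus all ID4-EGFP+) of the tested genes in 5 equal bins by transcript GC content, which goes from 0.10 in the bin with the lowest GC to -0.13 in the bin with the highest.

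Base composition moved with the comparison. Across the 10747 tested genes with a GC content, the log2 fold change had a Spearman's rho of -0.37 with GC, as a description over genes, which are not independent. By pair it was -0.49, 0.02 and -0.27. Libraries within a group also differed with GC, with rho of 0.31 for all ID4-EGFP+ replicate 3 minus replicate 1 and 0.44 for TSPAN8-low replicate 3 minus replicate 1. After correction for GC, 37 genes passed, 23 higher and 14 lower, of which 8 were among the 9 (H2-T9 had no GC value). The stem cell list's median was then -0.47, that of the feedback genes -0.30 and that of glycolysis -0.11. The median changed sign for the lists of lysosome and autophagy (-0.11 to 0.03), cholesterol synthesis (-0.06 to 0.04) and retinoic acid handling (-0.08 to 0.02). It went from -0.13 to -0.01 for undifferentiated spermatogonia, from -0.12 to -0.02 for DNA methylation, from 0.16 to 0.07 for meiosis and from 0.16 to 0.28 for differentiating genes. The progenitor, respiratory chain and other tetraspanin lists, at 0.05, 0.04 and 0.04, had 0.15, 0.15 and 0.17.

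Genes of the GDNF and FGF feedback list, which growth factors induce through ERK and some of which damp the pathway, also lay lower. Of 17 genes on the list 10 were tested and 0 passed, with a median log2 fold change of -0.40 (range -0.61 to 0.06). An unadjusted p under 0.05 was seen for 6, all with lower values (10.8% of all tested genes). Dusp6, for an ERK phosphatase, had 42.8, 35.8 and 52.1 FPKM in all ID4-EGFP+ and 21.9, 26.8 and 36.6 FPKM in TSPAN8-low (-0.61, SE 0.15, limma adjusted p = 0.0976). Within each pair it was lower, while the groups overlapped slightly.

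Etv4, an ETS factor gene like Etv5, had 7.03, 7.17 and 9.71 FPKM against 4.54, 4.36 and 5.91 FPKM (-0.59, limma adjusted p = 0.1004), with no overlap. The Sprouty genes Spry1 and Spry4, for inhibitors of receptor tyrosine kinase signalling, had -0.60 and -0.49 (limma adjusted p = 0.116 and 0.210). Egr1, named after its values were seen, was the only tested member above 0 (0.06). In TSPAN8-high, Dusp6 stood at 68.2 to 75.3 FPKM, above all other libraries, while Etv4 stood at 7.24 to 9.37 FPKM, within the range of the unfractionated cells.

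Progenitor genes did not move as 1 group, but some of them lay higher in TSPAN8-low. All 12 were tested, 0 passed, and the median was 0.05. With an unadjusted p under 0.05, 4 had higher and 0 had lower values (4.49% and 10.8% of all tested genes). These 4 were Cited1, Gal, Crabp1 and Lmo1. Crabp1, for a retinoic acid binding protein, had 391, 272 and 321 FPKM in all ID4-EGFP+ and 471, 426 and 464 FPKM in TSPAN8-low (0.48, SE 0.15, limma adjusted p = 0.173), without overlap. Gal, for the neuropeptide galanin, had 9.08, 5.60 and 6.80 FPKM against 15.8, 11.4 and 7.92 FPKM (0.61, limma adjusted p = 0.113). Lmo1, for a LIM-only cofactor of transcription factors, had 0.36 (limma adjusted p = 0.264).

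Each of these 4 genes lay above the control in all 3 pairs. The gap to TSPAN8-high was larger, with log2 fold changes of TSPAN8-high minus all ID4-EGFP+ of -2.08, -1.44, -1.17 and -1.61 for Cited1, Gal, Crabp1 and Lmo1. Neurog3 and Sox3, transcription factor genes of early progenitors named after their values were seen, had -0.08 and -0.09 in TSPAN8-low. Sohlh1, for a factor that starts differentiation, had 0.07.

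Of 12 differentiating genes, all tested, 0 passed, and the median was 0.16. At an unadjusted p under 0.05, 4 were higher and 0 lower (4.49% and 10.8% of all tested genes). Kit had 5.35, 4.23 and 4.35 FPKM in all ID4-EGFP+ and 8.26, 5.59 and 5.18 FPKM in TSPAN8-low (0.36, SE 0.15, limma adjusted p = 0.268). It was higher in each pair, most in the first, and the groups overlapped. Prss50, for a serine protease of the testis, Esx1, for a homeobox factor, and Dmrtb1, for a factor that controls the entry into meiosis, had 0.53, 0.46 and 0.34 (limma adjusted p = 0.157, 0.234 and 0.311). Stra8, which retinoic acid induces and which was named after its values were seen, had 159, 154 and 144 FPKM against 202, 186 and 174 FPKM (0.29, limma adjusted p = 0.347), without overlap. Over the alternative settings the median of this list lay between 0.10 and 0.29, and that of the progenitor list between -0.02 and 0.19.

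**Figure D4:**
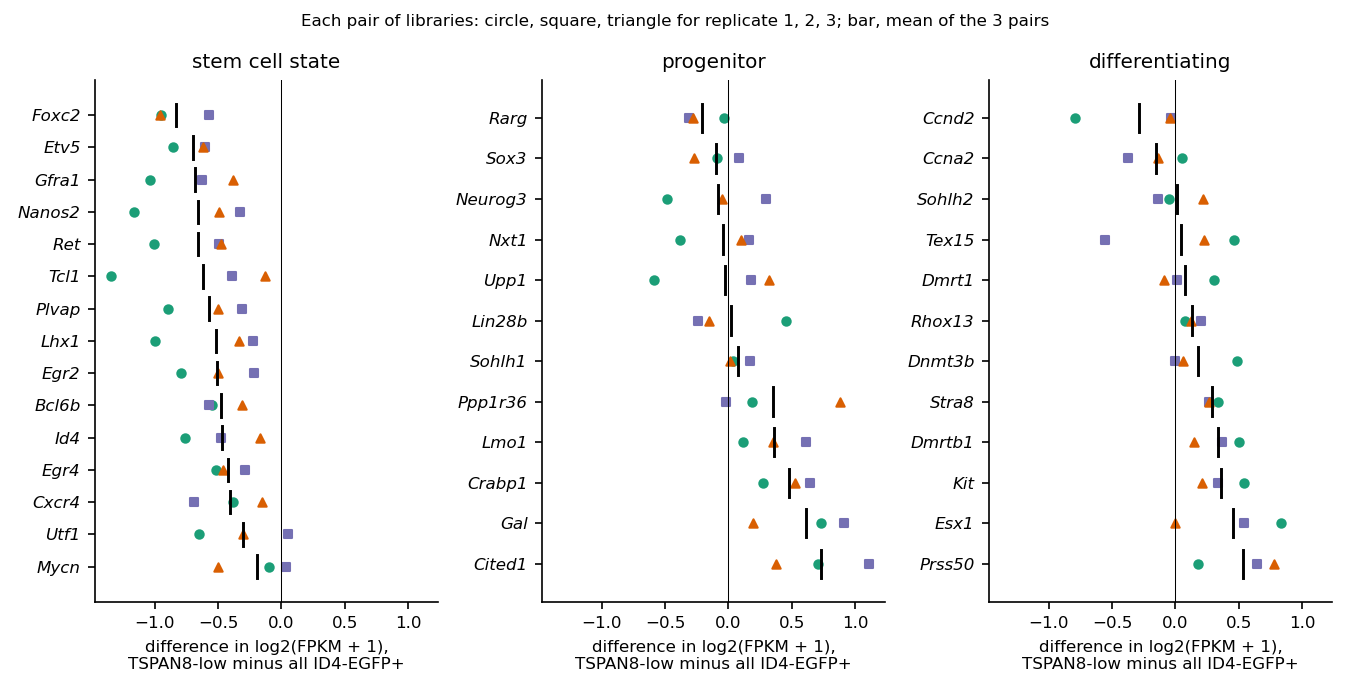
Difference in log2(FPKM + 1), TSPAN8-low minus all ID4-EGFP+, in each of the 3 pairs of libraries (circle, square and triangle for replicates 1, 2 and 3) for the tested members of the stem cell state, progenitor and differentiating lists; bars are means of the 3 pairs. For the stem cell state 13 of 15 genes lie left of 0 in all 3 pairs, against 1 of 12 in each of the other lists, where 5 of 12 lie right of 0 in all 3 pairs.

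Meiosis genes went in both directions. All 15 with 1 entry were tested and 0 passed, with a median of 0.16. An unadjusted p under 0.05 was seen for 2 higher and 2 lower (4.49% and 10.8% of all tested genes). By pair the median was 0.33, 0.02 and -0.0078. Sycp3, for a lateral element of the synaptonemal complex, had 973, 632 and 855 FPKM in all ID4-EGFP+ and 1579, 1323 and 1036 FPKM in TSPAN8-low (0.68, SE 0.18, limma adjusted p = 0.113). Rec8, for the meiotic cohesin kleisin, had 2.15, 4.22 and 2.89 FPKM against 0.916, 1.66 and 2.12 FPKM (-0.67, SE 0.16, limma adjusted p = 0.0985). Neither overlapped between the groups. Hormad1, for a chromosome axis protein, had 0.31 and Stag3, for another meiotic cohesin subunit, -0.42.

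The wider list of undifferentiated spermatogonia had 16 tested members, 0 that passed and a median of -0.13. Lower values at an unadjusted p under 0.05 were seen for 3 and higher ones for 0 (10.8% and 4.49% of all tested genes). Pou5f1, for the pluripotency factor OCT4, had 6.31, 6.12 and 12.8 FPKM in all ID4-EGFP+ and 3.15, 7.48 and 6.52 FPKM in TSPAN8-low (-0.48, limma adjusted p = 0.264). Zbtb16, for the zinc finger factor PLZF, had -0.34, Dppa4 had -0.34 and Piwil4, for a partner of small germline RNAs, had -0.29. These 4 genes overlapped between the groups.

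**Figure D5:**
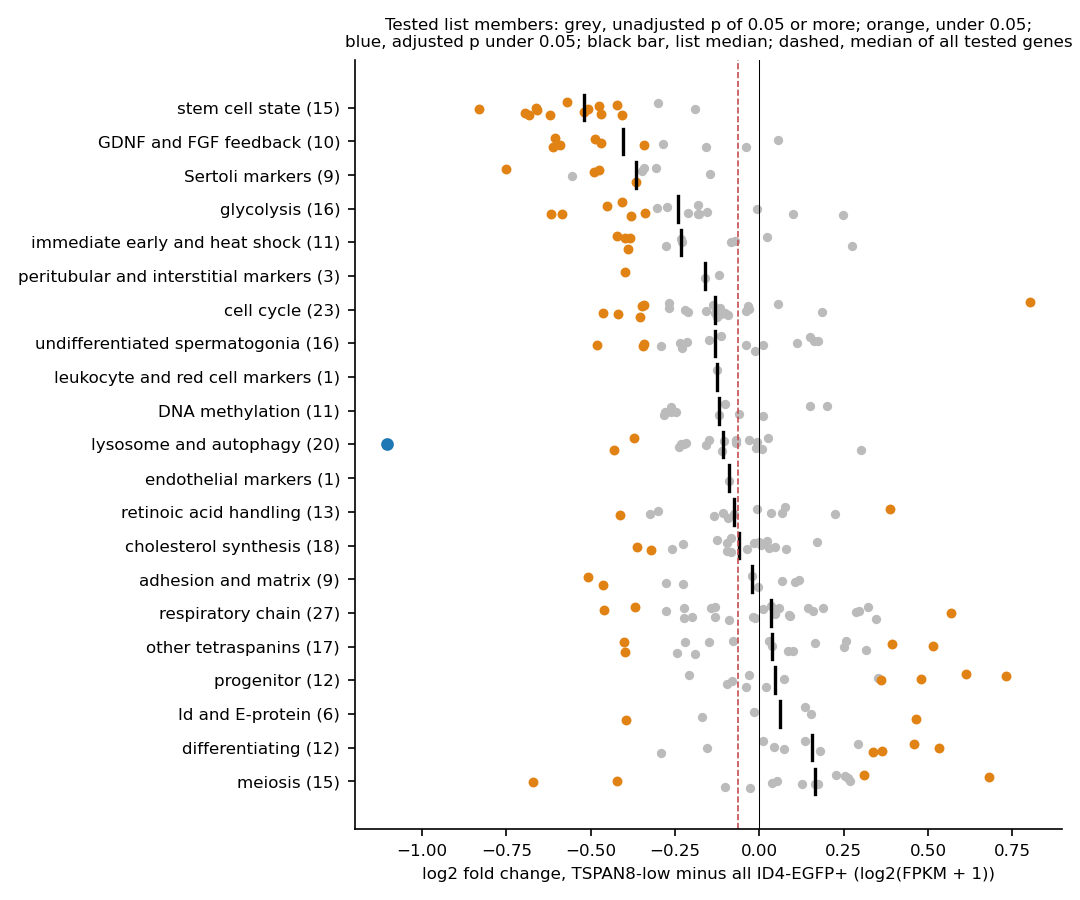
Log2 fold change (TSPAN8-low minus all ID4-EGFP+, log2(FPKM + 1) scale) of each tested list member, with the number tested after each list's name; black bars are list medians and the dashed line is the median of all tested genes, -0.06. The stem cell state list has the lowest median (-0.52), and the meiosis and differentiating lists lie at the other end (0.16 each); the blue point is Optn.

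Among metabolic lists, the median of 16 glycolytic genes was -0.24, and 0 passed. At an unadjusted p under 0.05, 6 were lower and 0 higher (10.8% and 4.49% of all tested genes). Pkm, for pyruvate kinase, had 71.9, 161 and 126 FPKM in all ID4-EGFP+ and 50.6, 111 and 76.3 FPKM in TSPAN8-low (-0.59, SE 0.14, limma adjusted p = 0.0912). The replicates of a number were alike for Pkm, the first being low and the second high in both groups. Ldhb, for a lactate dehydrogenase subunit, had -0.62, Gpi1, for glucose-6-phosphate isomerase, -0.45 and Aldoc, for an aldolase, -0.38.

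The 27 respiratory chain genes had a median of 0.04, and 0 passed. Among them 1 was higher and 2 lower at an unadjusted p under 0.05 (4.49% and 10.8% of all tested genes). Cycs, for cytochrome c, had 386, 247 and 376 FPKM against 541, 493 and 440 FPKM (0.57, limma adjusted p = 0.144), and Atp5b, for a subunit of ATP synthase, Ndufv1 and Ndufv2, for subunits of complex I, had -0.46, -0.37 and 0.30. Of 18 cholesterol synthesis genes 0 passed and 2 were lower at an unadjusted p under 0.05, near the share of all tested genes (10.8%). The list's median was -0.06, with Fdft1, for squalene synthase, at -0.36, Lss at -0.32 and Mvk at -0.26.

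Of 20 lysosome and autophagy genes 1 passed, Optn, and the median was -0.11. With Optn, 3 were lower and 0 higher at an unadjusted p under 0.05 (10.8% and 4.49% of all tested genes). Sqstm1, for another autophagy receptor, had 65.4, 132 and 87.1 FPKM in all ID4-EGFP+ and 53.5, 91.5 and 61.8 FPKM in TSPAN8-low (-0.43, SE 0.14, limma adjusted p = 0.180), and Gabarapl1, for a protein of the autophagosome membrane, had -0.37. Lamp2, for a lysosomal membrane protein, had 0.30. Apart from Optn, the tested members lay between -0.43 and 0.30.

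Cell cycle genes, 23 tested with 0 that passed, had a median of -0.13. At an unadjusted p under 0.05, 5 were lower and 1 higher (10.8% and 4.49% of all tested genes). The 1 that was higher was Ccne2. Cdc20, for an activator of the anaphase-promoting complex, had -0.46 (limma adjusted p = 0.146), Top2a, for topoisomerase II alpha, -0.42 and Mcm7, for a subunit of the replicative helicase, -0.35. The list of immediate early and heat shock genes, many of which handling of cells induces, had 11 tested members, 0 that passed and a median of -0.23. Here 4 were lower and 0 higher at an unadjusted p under 0.05, against the same shares of all tested genes. Hspa8, Ier2, Ier3 and Jund had -0.40, -0.39, -0.42 and -0.38.

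Other tetraspanins did not share a direction. Of 17 tested 0 passed, with a median of 0.04. An unadjusted p under 0.05 was seen for 2 higher and 2 lower (4.49% and 10.8% of all tested genes). Cd63, for a tetraspanin of endosomes, had 170, 148 and 170 FPKM in all ID4-EGFP+ and 231, 234 and 233 FPKM in TSPAN8-low (0.52, SE 0.14, limma adjusted p = 0.126), with no overlap. In TSPAN8-high it stood at 82.6, 92.8 and 98.7 FPKM, so its order over the 3 groups was the opposite of that of Tspan8. Tspan14, for a partner of the protease ADAM10, had 20.4, 20.5 and 20.3 FPKM against 15.3, 14.3 and 16.01 FPKM (-0.40, limma adjusted p = 0.210). Cd82 and Tspan13 had -0.40 and 0.39.

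The Id and E-protein list (6 tested, 0 passed, median 0.06) concerns the partners of ID4. It had 1 higher and 1 lower at an unadjusted p under 0.05 (4.49% and 10.8% of all tested genes). Tcf3, for the E-protein E2A that Id proteins bind, had 7.22, 7.79 and 8.28 FPKM in all ID4-EGFP+ and 5.73, 6.13 and 5.14 FPKM in TSPAN8-low (-0.40, limma adjusted p = 0.233), with no overlap. Id2 had 1.23, 1.86 and 1.83 FPKM against 3.00, 3.35 and 1.73 FPKM (0.46, limma adjusted p = 0.234), while Id1 and Tcf12 had -0.17 and 0.15.

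In the remaining lists 0 genes passed. Their counts stand against 4.49% higher and 10.8% lower at an unadjusted p under 0.05 among all tested genes. Of 13 retinoic acid genes 1 was higher and 1 lower at an unadjusted p under 0.05 (median -0.08), with Rxrg, for a nuclear receptor, at -0.41, Crabp2 at 0.39, the retinal reductase gene Dhrs3 at -0.30 and Aldh1a1, for a retinaldehyde dehydrogenase, at -0.32. Of 9 adhesion and matrix genes 2 were lower (median -0.02). Mcam, for an adhesion molecule of the immunoglobulin family, had 30.2, 40.7 and 36.3 FPKM against 18.8, 28.7 and 27.5 FPKM (-0.51, limma adjusted p = 0.120), Itgb5 -0.46, Itga1 -0.28 and Ctnna1, for alpha-catenin, -0.23. Of 11 DNA methylation genes 0 had an unadjusted p under 0.05 (median -0.12), and Uhrf1, Mbd3, Tdg and Mbd1 had -0.28, -0.26, -0.28 and -0.26.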

How the data were processed

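RNA was sequenced from sorted spermatogonia (3 groups of 3 libraries) with the SMART-Seq v4 and Nextera XT kits, per the labels' protocols. Reads were processed on genome build mm9 with TopHat2 2.0.12, Bowtie2 2.2.3.0, Cufflinks and FastQC, per the submitters' processing notes. For Cufflinks no version, and no annotation, is given in the sources used here. FPKM values deposited by the authors were tested. A second table deposited by the authors holds normalized values, called signal here and used in 1 alternative; its log10 was a straight line of log10 FPKM in each library (slopes 0.973 to 1.02). A deposited log table was not used.

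The table held 23813 entries; 262 symbols on 768 entries were left out, and 27 entries, 12 of them tested, show a date in place of a symbol. The test was that of limma 3.58.1 under R 4.3.3 (two-sided, lmFit and eBayes with a mean trend), fitted to log2(FPKM + 1), a scale that understates the change of low genes, with the replicate number as a block and Benjamini-Hochberg adjustment over the 10843 tested genes. Groups share replicate numbers in the titles: deviations from the group means correlated across genes at 0.40, 0.30 and 0.39 (r) for libraries of equal number, and at -0.49 to 0.13 for unequal ones. The numbers come from the titles, which do not say what a number shares. Pairing by number was part of the plan of the comparison, and this pattern is given beside it. Deviations from a group mean cancel out, so positive r at equal numbers pushes r at unequal numbers down.

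Named genes were Tspan8 and Id4, the 15 largest rises and the 15 largest falls among genes past the threshold without overlap (filled to 15 per direction by the smallest p without overlap), list members past the threshold and, per list, the 4 tested genes of smallest p (fewer where fewer were tested). For 1 gene so named, no value is reported here. The comparison and the 22 lists (369 genes, 265 tested) were chosen with earlier results of these data known. Transcript GC came from GENCODE M21 (99.1% of tested genes) and promoter windows from RefSeq (20 of 30 named genes had an entry); both are of a later build than the data. Alternatives changed the block, libraries, pseudocount, filter, scaling and GC content. Plots were drawn with matplotlib 3.10.9 in Python 3.11.15.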

Additional observations from a re-analysis of the deposited data

How the results depend on the processing

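The count of 9 genes was 0 without the replicate block, also with all 9 libraries and no block, and with no filter on low values (1912 then had an unadjusted p under 0.05). It was 61 with an FPKM of at least 1 in all 6 libraries, of which 5 were among the 9. Cbln2, Jdp2, Scarna13 and H2-T9 had values under 1 FPKM and could not be tested there. The count was 20 with the authors' normalized values, 26 with a common median, 27 after quantile normalization and 37 with the GC correction. It was 9 and 10 with pseudocounts of 0.1 and 0.5, and 12 with all 9 libraries and the block, of which 6 were among the 9. Leaving out the pair with 1 number gave 7 to 196 genes (196 without replicate 2, 102 without replicate 3), and leaving out 1 library without the block gave 0 or 1. The cause of these shifts was not tested. Leaving out a pair put Tspan8 between -0.75 and -0.43, past the threshold at -0.75 (SE 0.19, against 0.16 in the main fit). Over all 20 alternatives Tspan8 lay between -0.77 and -0.40 and Id4 between -0.67 and -0.22, and Id4 passed in none. No called gene changed sign. Of the single-gene values under alternatives 1847 kept side and direction, 109 came to pass, 90 ceased to pass and 17 changed sign; the cause was not tested.

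Signs changed with the GC correction for Tagln (0.0063), Egfl7 (0.0468) and Cd68 (0.0124). Without 1 pair Id1 ranged from -0.444 to 0.0189, Tagln from -0.315 to 0.0138, Egfl7 from -0.185 to 0.0208 and Cd68 from -0.245 to 0.0306. Without 1 library and with no block the values of opposite sign were 0.0567 for Aldh1a1, -0.0593 for Tcf12, 0.0156 and 0.105 for Id1, 0.0465 and 0.116 for Sparc, 0.0388 and 0.0406 for Tagln, and 0.0265 and 0.173 for Cd68. Without 1 library the difference in summed FPKM ranged from -53.4 to 17.1 for Sertoli markers, from -5.54 to 1.89 for peritubular markers and from -2.27 to 1.61 for leukocyte markers. Depth is unknown, so no limit from counting can be given for low genes.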

Other observations

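Gene groups chosen after the values of these libraries were seen are given here as description, with no test of a group. Of 20 tested cytosolic aminoacyl-tRNA synthetase genes, whose products load tRNAs with amino acids, 0 passed, 11 were lower in TSPAN8-low and 0 higher at an unadjusted p under 0.05 (10.8% and 4.49% of all tested genes), and 18 estimates lay below 0, with a median log2 fold change of -0.36 (-0.27 with the GC correction). Sars, for the seryl enzyme, had 22.7, 53.5 and 39.9 FPKM in all ID4-EGFP+ and 15.6, 33.8 and 23.5 FPKM in TSPAN8-low (-0.63, limma adjusted p = 0.0828). Mars, for the methionyl enzyme, had 58.1, 66.9 and 58.7 FPKM against 41.8, 50.1 and 39.4 FPKM (-0.48, limma adjusted p = 0.131), with no overlap. Unlike the stem cell genes, this group had a median near 0 in TSPAN8-high against all ID4-EGFP+ (-0.01).

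The X-linked Xlr family had 10 tested genes, 0 that passed and 4 higher at an unadjusted p under 0.05 (4.49% of all tested genes). All 10 estimates lay above 0 (median 0.20, and 0.23 in TSPAN8-high against the same controls). With the GC correction the median was 0.17. The family's median GC content was 42.9%, and in the bin of tested genes with the lowest GC 13.2% were higher at that level. Xlr had 222, 149 and 190 FPKM in all ID4-EGFP+ and 325, 315 and 240 FPKM in TSPAN8-low (0.65, limma adjusted p = 0.104); reads can be split among the near-identical copies of this family. Of 53 clustered histone genes 1 passed, Hist1h2aa (0.083% of all tested genes passed). At an unadjusted p under 0.05, 7 were higher and 2 lower (4.49% and 10.8% of all tested genes), and the median was -0.03. Of 21 small nucleolar and Cajal body RNAs 2 passed, Snora28 and Scarna13, in opposite directions. Among these RNAs 5 were higher and 7 lower at an unadjusted p under 0.05, against the same shares. The estimates of the small RNAs ran from -3.40 to 2.84. Snora75 was at 275, 0 and 207 FPKM in all ID4-EGFP+ and at 47.9, 0 and 0 FPKM in TSPAN8-low, and Snora30 at 0, 274 and 0 FPKM against 0, 592 and 169 FPKM.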
